A study of Mus musculus with 6 samples.

Results

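A set of 7 genes known from melanocytes and neural crest glia is described in the developing heart valve region of mice that lack the transcription factor Scleraxis (Scx) and of their wild type littermates. They are the transcription factors Sox10 and Mitf, the receptors Kit, Ednrb and Erbb3, and the pigment enzymes Dct and Tyrp1. The 7 genes were chosen by name while earlier results of the same libraries, their RPKM values included, were known, so their values are given as a description with no test. RPKM are reads scaled by exon length and by library depth. Of the 7 genes, 6 had a row among the 18810 genes of the table, and Sox10 (ENSMUSG00000033006) had none.

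RNA was sequenced from C57BL/6 embryos at embryonic day 15.5, with 3 Scx-/- libraries and 3 Scx+/+ libraries from littermates. The tissue was the atrioventricular canal (AVC) with its valves and the aortic valve, cut away from most of the heart muscle, and 1 heart gave 1 library. The cells were not sorted, so each value averages over all cell types of the dissected tissue. The comparison of the genotypes asks which transcripts change when Scx is lost during valve remodeling.

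Melanocytes and peripheral glia both descend from the neural crest, a migratory cell population of the embryo that also contributes to the heart. SOX10 keeps crest cells competent for both fates and activates Mitf, the master regulator of the melanocyte lineage, whose targets include Dct and Tyrp1. Precursors of melanocytes depend on KIT and its ligand and on EDNRB and endothelin 3, while precursors of Schwann cells depend on neuregulin 1 acting through ERBB3 and ERBB2. Pigmented cells of melanocyte type are known from murine heart valves.

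Because Dct and Tyrp1 are targets of MITF, the 250 bases before their starts are shown first. They come from RefSeq promoters on GRCm38.p6, which had entries for 5 of the 7 genes and none for Sox10 and Erbb3. The Dct stretch lies at chr14:118052247-118052496 on the minus strand and the Tyrp1 stretch at chr4:80833963-80834212 on the plus strand. Capitals mark TCATGTG, the core of the M-box bound by MITF, or its reverse complement CACATGA. The motif contains the shorter E-box CATGTG and was searched on both strands.
Dct: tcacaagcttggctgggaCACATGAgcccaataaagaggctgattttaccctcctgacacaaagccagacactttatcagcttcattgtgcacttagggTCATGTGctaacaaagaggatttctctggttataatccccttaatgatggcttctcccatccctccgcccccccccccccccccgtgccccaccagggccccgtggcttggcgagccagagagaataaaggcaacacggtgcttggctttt
Tyrp1: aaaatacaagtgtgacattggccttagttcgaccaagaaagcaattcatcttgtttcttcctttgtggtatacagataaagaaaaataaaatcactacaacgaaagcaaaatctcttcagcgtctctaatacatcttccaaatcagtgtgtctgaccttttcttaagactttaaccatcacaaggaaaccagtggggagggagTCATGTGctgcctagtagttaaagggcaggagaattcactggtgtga
In Dct, the motif began 151 bases before the start and its reverse complement 232 bases before it. In Tyrp1, it began 47 bases before the start. No match was in the windows of Mitf (3 starts), Kit (2 starts) or Ednrb (1 start), which says only that these letters were not in those bases. Over all 32851 promoter windows of this length, 3.25% held the motif, or 3.72% of 27025 genes.

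Depth and composition of the libraries were compared before the genes. The depth recovered from the RPKM, exact to a few reads, was 52323447, 66991285 and 59737811 reads for Scx-/- replicates 1, 2 and 3. For Scx+/+ replicates 1, 2 and 3 it was 60027723, 46429972 and 68570998 reads. Scx+/+ replicate 2 was the shallowest library, and its 10 most abundant genes held 56.9% of its RPKM sum, against 30.7% to 43.9% in the other 5. Its mean Spearman correlation with the other 5 libraries, across genes, was 0.933, and those of the others were 0.941 to 0.951. Scx+/+ replicate 3 came next on both measures (43.9% and 0.941), and Scx-/- replicate 3 was unremarkable on both (33.8% and 0.947). Scx-/- replicate 3 and Scx+/+ replicate 2 nevertheless deviated from the means of their genotypes together, with a correlation of 0.32 across genes, the highest of 9 pairs. Deviations within a genotype sum to 0, so the 9 correlations are linked, and the highest of them is a description and no test. For this shared deviation alone the 2 are called the libraries that stand apart, a label chosen after the data were seen. Fold changes and medians that rest on them are also given without them.

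Scx values over the whole gene did not check the labels. The RPKM was 33.6, 18.6 and 82.9 in Scx-/- replicates 1, 2 and 3 and 29.5, 58.3 and 26.0 in Scx+/+ replicates 1, 2 and 3. The genotypes overlapped, and the highest values were in the 2 libraries that stand apart. Exon values were not analysed here. In the study, the Scx-/- samples had been checked for loss of the first exon before sequencing.

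The names of the 2 cell types were then checked against other genes that mark them. Of 12 further genes of melanosomes and melanin synthesis (pigment companions), 5 had a row, namely Pmel, Mlana, Slc24a5, Rab38 and Rab27a. The other 7, among them Tyr, the rate-limiting enzyme of melanin synthesis, and the transporters Slc45a2 and Oca2, had no row, and neither had Gpr143, Trpm1, Mlph and Mc1r. Of 12 further genes of Schwann cells and their precursors (glia companions), 6 had a row and 6 had none, among them Gfra3, Cdh19, Pou3f1, Sox2 and Ttyh1. Of 7 transcription factors of the neural crest, Sox5, Sox9 and Snai2 had a row and Pax3, Foxd3, Tfap2a and Tfap2b had none. Every gene with a row reached at least 0.395 RPKM in some library. Several defining genes of both cell types thus had no row, and the genes are therefore called by what they are known from and not by a cell type.

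On mm9, Dct (ENSMUSG00000022129) lies at chr14:118412014-118451468 on the minus strand and Ednrb (ENSMUSG00000022122) at chr14:104213842-104243390 on the same strand. Tyrp1 (ENSMUSG00000005994) lies at chr4:80480027-80497623 on the plus strand. Mitf (ENSMUSG00000035158) is on chromosome 6, Kit (ENSMUSG00000005672) on chromosome 5 and Erbb3 (ENSMUSG00000018166) on chromosome 10. RPKM were summed over all exons, which is 2484 bases for Dct, 2828 for Tyrp1 and 4037 to 6233 for the other 4, and none of the 6 shares exon sequence with another gene of the annotation by position.

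The levels of the 6 listed genes fell into 2 ranges. Averaged over the 6 libraries and on the RPKM scale, which corrects for gene length, Ednrb stood at 28.4, Mitf at 19.8, Dct at 2.46, Kit at 1.502, Erbb3 at 1.15 and Tyrp1 at 0.401. The median over all genes was 3.43 RPKM. Ednrb and Mitf were above 86.8% and 82.8% of genes, and Dct, Kit, Erbb3 and Tyrp1 above 43.3%, 33.8%, 28.7% and 11.2%. The step from Mitf to Dct was the clear one in this order, with Mitf higher in 6 of 6 libraries and no overlap. Neighbours elsewhere in the order overlapped: Ednrb was above Mitf in 5 of 6 libraries, Dct above Kit in 4, Kit above Erbb3 in 5 and Erbb3 above Tyrp1 in 6.

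**Figure D1:**
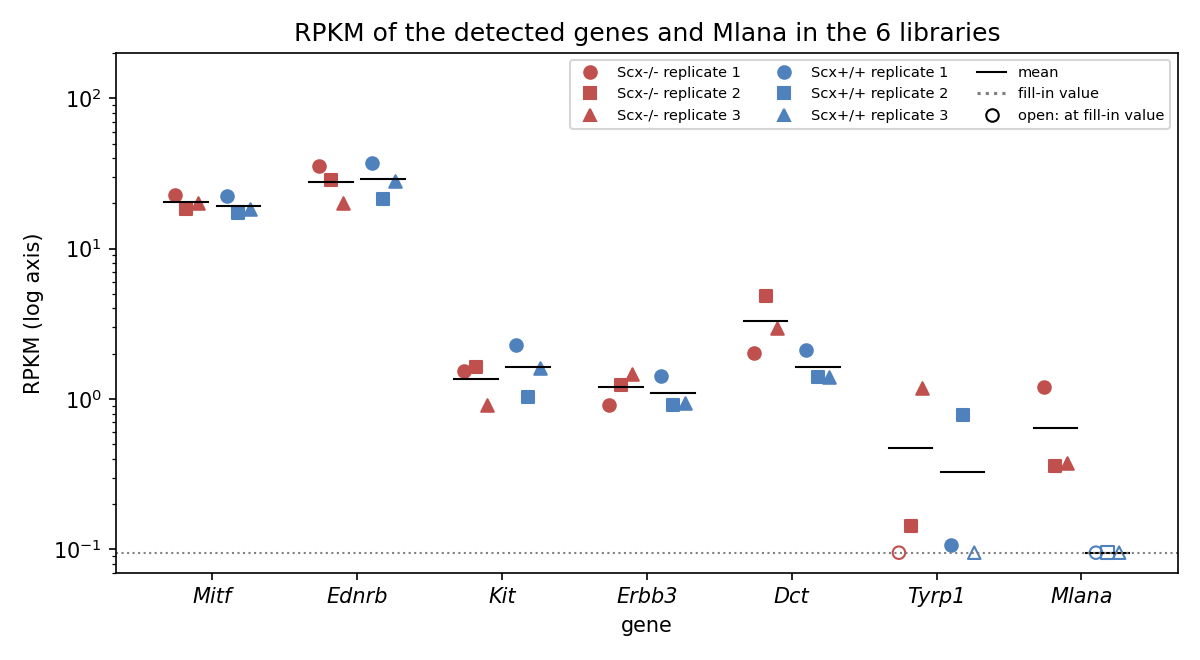
RPKM (log axis) of the 6 listed genes and of Mlana in each library, with Scx-/- in red, Scx+/+ in blue and a bar at the mean of each genotype. Open symbols are values at the fill-in value of 0.0949 RPKM (dotted line), and Mlana was above it in Scx-/- libraries only, while Tyrp1 was high in Scx-/- replicate 3 and Scx+/+ replicate 2.

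Ligands of the receptors came from a list of 8 ligands and co-receptors, of which 7 had a row and Edn3, the endothelin of melanocyte precursors, had none. Kitl, the ligand of KIT, was at 10.1 to 14.1 RPKM in the 6 libraries, with its highest values, 14.1 and 13.4 RPKM, in the 2 libraries that stand apart. Nrg1, the ligand of ERBB3, was lower at 0.254 to 0.832 RPKM, and its log2 fold change was 0.63 (SE 0.51, n = 3 against 3), and 0.25 without both libraries that stand apart. Log2 fold changes are Scx-/- minus Scx+/+ on the scale of log2(RPKM + 0.1), which understates those of low genes. None of the 7 passed limma at an unadjusted p below 0.05 in either direction. Over all genes, 3.89% did, 2.82% as higher and 1.06% as lower in Scx-/-, and limma called 0 genes (0%) after adjustment against 731 before it. Without Scx+/+ replicate 2, 1549 genes passed before adjustment. Edn1 was at 1.63 to 4.17 RPKM, and Ece1, the enzyme that activates endothelins, was at 7.50 to 12.3 RPKM. The median log2 fold change of the list was -0.01, beside 0.11 over all genes, and -0.18 beside 0.14 without both libraries that stand apart.

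Ednrb, the endothelin receptor of melanocyte and enteric crest cells, was the most abundant of the 6. Its RPKM was 35.3, 28.4 and 20.0 in Scx-/- replicates 1, 2 and 3 and 37.0, 21.4 and 28.3 in Scx+/+ replicates 1, 2 and 3. The genotypes overlapped over nearly their whole range, and the lowest values were those of the 2 libraries that stand apart. Mean RPKM was 27.9 ± 7.63 (SD, n = 3) for Scx-/- and 28.9 ± 7.80 (SD, n = 3) for Scx+/+. On the log2 scale the difference was -0.05 (SE 0.26). Without both libraries that stand apart it was -0.03, and with 1 library left out it ranged from -0.25 to 0.17, above 0 without Scx-/- replicate 3 or Scx+/+ replicate 1. Ednra, the receptor that mediates endothelin 1 effects in crest-derived vessels, was at 4.01 to 5.54 RPKM and did not follow the same order of libraries.

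Kit, the receptor of stem cell factor in melanocytes, mast cells and germ cells, had 1.53, 1.63 and 0.916 RPKM in Scx-/- replicates 1, 2 and 3. In Scx+/+ replicates 1, 2 and 3 it had 2.29, 1.02 and 1.62 RPKM. As for Ednrb, the lowest library of each genotype was the one that stands apart, and the genotypes overlapped. Its log2 fold change was -0.23 (SE 0.39), and -0.27 without both libraries that stand apart. It was 0.01 without Scx-/- replicate 3, 0.03 without Scx+/+ replicate 1 and -0.51 without Scx+/+ replicate 2, so its sign rested on single libraries.

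Erbb3, the neuregulin receptor of Schwann cell precursors that is also known from cushion mesenchyme, had 0.918, 1.23 and 1.46 RPKM in Scx-/- replicates 1, 2 and 3. In Scx+/+ replicates 1, 2 and 3 it had 1.42, 0.913 and 0.943 RPKM. The genotypes spanned almost the same range, and high and low values occurred in each. On the log2 scale the difference was 0.13 (SE 0.36), -0.11 without both libraries that stand apart and -0.01 to 0.32 with 1 library left out. Its partners Erbb2 and Erbb4 ranged from 1.64 to 5.99 and from 3.27 to 6.41 RPKM, and each was lowest in Scx-/- replicate 3.

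Mitf was steady across the libraries. Its RPKM was 22.6, 18.3 and 20.2 in Scx-/- replicates 1, 2 and 3 and 22.4, 17.1 and 18.4 in Scx+/+ replicates 1, 2 and 3. The highest value was 1.32 times the lowest, and the genotypes overlapped. Its log2 fold change was 0.08 (SE 0.18), which became -0.03 when the median log2 ratio of each library was set to 0 and -0.06 after quantile normalization. It was 0.0023 without both libraries that stand apart, and -0.0023 to 0.19 with 1 library left out. Setting the medians to 0 lowered the median of all genes by 0.11, and all fold changes with it. Mitf is transcribed from several promoters, of which that of the melanocyte form is only one, and gene values do not separate them.

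Of the other neural crest factors, Sox9, known from crest cells and from valve mesenchyme, was at 1.26 to 3.36 RPKM, and Sox5 at 0.121 to 0.542 RPKM. Snai2, a repressor active in migrating crest cells and in epithelial to mesenchymal transition, had 1.78, 1.64 and 0.865 RPKM in Scx-/- replicates 1, 2 and 3 and 2.99, 2.004 and 2.46 RPKM in Scx+/+ replicates 1, 2 and 3. All 3 Scx-/- values lay below all 3 Scx+/+ values, as for 2.31% of all genes. The log2 fold change was -0.80 (SE 0.35), with limma's unadjusted p = 0.0475 and adjusted p = 0.967. The exact permutation test, two-sided, gave p = 0.1, the smallest that 3 against 3 allows. The limma call was lost without Scx-/- replicate 2 (unadjusted p = 0.0705), Scx-/- replicate 3 (unadjusted p = 0.132), Scx+/+ replicate 1 (unadjusted p = 0.156) or Scx+/+ replicate 3 (unadjusted p = 0.120). It was also lost without both libraries that stand apart (unadjusted p = 0.0524), with the replicate block (unadjusted p = 0.0604) and in the filter on a mean of 1 RPKM (unadjusted p = 0.0528). The fold change stayed below 0 under all 14 alternatives, from -0.98 to -0.50.

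Dct, the dopachrome tautomerase that acts early in the melanocyte lineage, was detected in all 6 libraries. It had 2.02, 4.87 and 2.95 RPKM in Scx-/- replicates 1, 2 and 3, which stood for 263, 811 and 437 reads. In Scx+/+ replicates 1, 2 and 3 it had 2.11, 1.396 and 1.397 RPKM, which stood for 315, 161 and 238 reads. Scx-/- replicates 2 and 3 were above every Scx+/+ library, and Scx-/- replicate 1 lay within the Scx+/+ range. Mean RPKM was 3.28 ± 1.45 (SD, n = 3) for Scx-/- and 1.64 ± 0.413 (SD, n = 3) for Scx+/+, a ratio of 2.01. The 95% Poisson interval, which covers counting error only, was 4.54 to 5.22 RPKM in Scx-/- replicate 2. It was 1.79 to 2.28 in Scx-/- replicate 1 and 1.89 to 2.36 in Scx+/+ replicate 1, which overlap.

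The log2 fold change of Dct was 0.90 (SE 0.36), and it was above 0 under all 14 alternatives run. It was 0.58 without Scx-/- replicate 2, and 0.84 without both libraries that stand apart. In bulk tissue, more cells that express Dct and more Dct RNA per cell cannot be told apart.

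Tyrp1, the enzyme that stabilises tyrosinase and acts on a later step of eumelanin synthesis, followed another order. It was at the fill-in value in Scx-/- replicate 1, at 0.143 RPKM in replicate 2 and at 1.18 RPKM in replicate 3. In Scx+/+ it was at 0.106 RPKM in replicate 1, at 0.784 RPKM in replicate 2 and at the fill-in value in replicate 3. The high values were those of the 2 libraries that stand apart, 1 of each genotype, with 200 and 103 reads, while the other 4 libraries held 27 reads or fewer. The fill-in value, 0.0949 RPKM, is common to all genes and stood here for fewer than 15.7 reads. Its log2 fold change was 0.26 (SE 0.91), and 0.12 without both of these libraries. It was -0.60 without Scx-/- replicate 3 and 0.97 without Scx+/+ replicate 2. Dct and Tyrp1, which share the motif marked in their promoters, were thus highest in different libraries, Scx-/- replicate 2 and Scx-/- replicate 3.

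Among the pigment companions, Mlana, the melanosome protein MART-1 (ENSMUSG00000024806), separated the genotypes. It had 1.20, 0.359 and 0.376 RPKM in Scx-/- replicates 1, 2 and 3, from 39, 15 and 14 reads. In all 3 Scx+/+ libraries it was at the fill-in value, which for this gene of 623 exonic bases stood for fewer than 3.46 reads. Set against the lowest value that was not filled in, taken in each Scx+/+ library, the measured mean of Scx-/- was at least 6.65-fold higher. Without Scx-/- replicate 1 it was at least 3.80-fold higher. The lowest Scx-/- value was 3.00 times the highest of these limits, 0.120 RPKM. These folds leave out counting error. The 95% Poisson intervals were 0.851 to 1.64, 0.201 to 0.593 and 0.206 to 0.631 RPKM in Scx-/- replicates 1, 2 and 3. The log2 fold change was 1.75 (SE 0.61), which depends on the fill-in value and on the 0.1 added. It was 0.55 with 1 added instead, 1.26 without Scx-/- replicate 1 and 1.99 without both libraries that stand apart. Mlana was placed on the list with its difference between these genotypes known, so its values are a description with no test and are not independent evidence. It was highest in Scx-/- replicate 1, the Scx-/- library with the lowest Dct.

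Slc24a5, a cation exchanger of melanosomes, was the other pigment companion whose genotypes did not overlap. It had 18.2, 21.2 and 17.91 RPKM in Scx-/- replicates 1, 2 and 3 and 17.87, 12.3 and 13.4 RPKM in Scx+/+ replicates 1, 2 and 3. All 3 Scx-/- values were above all 3 Scx+/+ values, as for 7.19% of all genes, by a narrow margin in Scx-/- replicate 3 over Scx+/+ replicate 1. The log2 fold change was 0.41 (SE 0.19), with limma's unadjusted p = 0.0636 and adjusted p = 0.967, and the unadjusted p was 0.0629 to 0.166 under 13 of the 14 alternatives and 0.0131 without Scx+/+ replicate 1. Without both libraries that stand apart the fold change was 0.35. Of its exon length, 39.5% is shared with exons of Myef2, a neighbouring gene. Whether reads were counted with strand is not stated, so reads of the 2 genes may not be separated there. The reverse complement of the motif began 13 bases before its start, in the 28 bases shown (chr2:125068099-125068126, plus strand, GRCm38.p6).
Slc24a5: aggaaggagactgctCACATGAttcagc
Pmel, the fibril protein of melanosomes, was at 0.502 to 1.12 RPKM, and Rab27a and Rab38, which serve melanosome transport and assembly, at 0.450 to 1.97 and 0.0949 to 0.544 RPKM. The genotypes overlapped for these 3. In the 7 pigment companions with a promoter entry, 4 held the motif, Slc24a5 and, of those without a row, Tyr, Trpm1 (not at every start) and Mc1r. Over all genes with a promoter entry, 3.72% held it. In the other 3 companion lists 0 of the 18 genes searched did, and at that share 18 genes are too few for 0 to be a contrast.

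**Figure D2:**
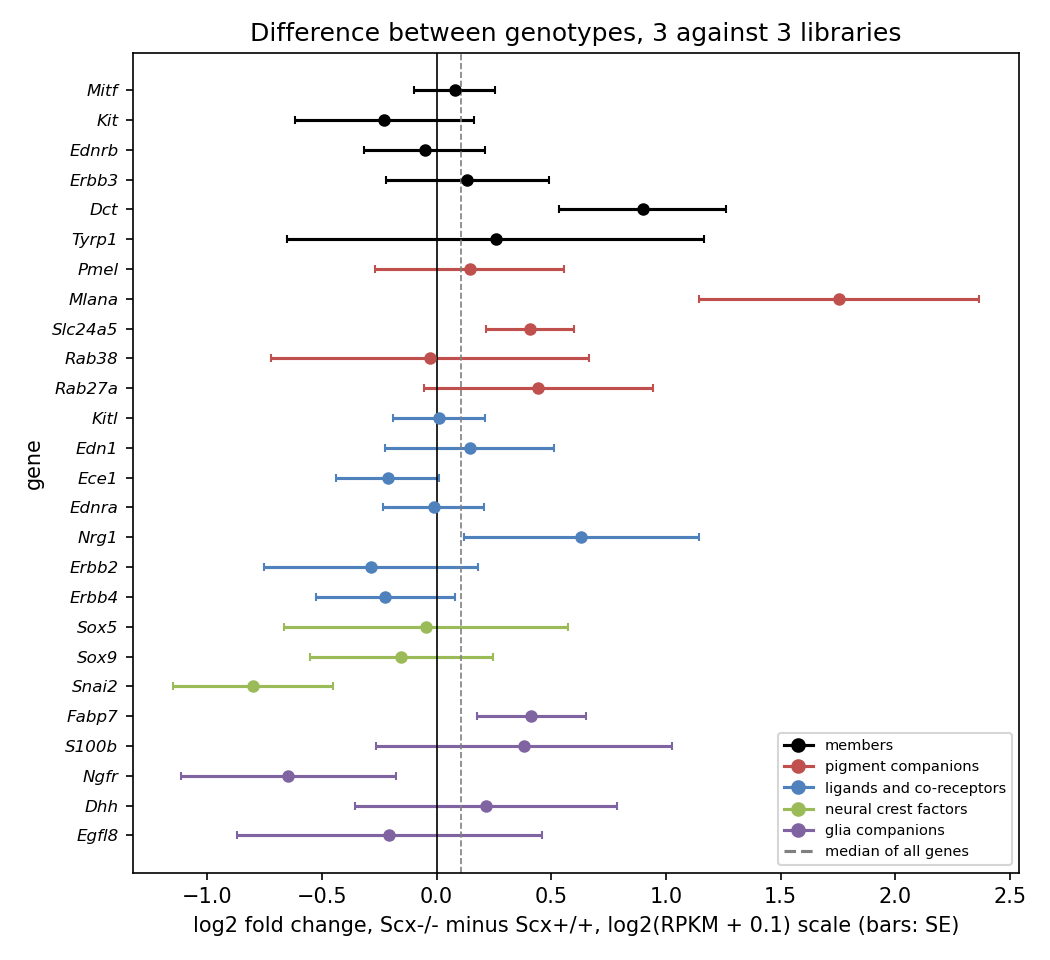
Log2 fold change (points) and standard error (bars) of the genes shown, Scx-/- minus Scx+/+, on the log2(RPKM + 0.1) scale with 3 libraries in each genotype. Mlana at 1.75, Dct at 0.90 and Snai2 at -0.80 lie farthest from 0, and the dashed line is the median of all genes at 0.11.

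The glia companions were low except for Fabp7, the fatty acid binding protein of radial glia and Schwann cell precursors, which also occurs in other cells of the embryo. Fabp7 had 6.51, 8.79 and 6.43 RPKM in Scx-/- replicates 1, 2 and 3 and 4.72, 4.70 and 6.93 RPKM in Scx+/+ replicates 1, 2 and 3. The genotypes overlapped through Scx+/+ replicate 3, and the log2 fold change was 0.41 (SE 0.24), and 0.40 without both libraries that stand apart. Ngfr, the neurotrophin receptor of crest cells and immature Schwann cells, differed the other way, at -0.65 (SE 0.47) and -0.48 without both of these libraries, with 0.243 to 0.471 RPKM in Scx-/- and 0.459 to 0.736 RPKM in Scx+/+. S100b, Dhh and Egfl8 ranged from 0.202 to 1.21, 0.251 to 0.802 and 0.0951 to 1.06 RPKM, and 34.9% of the exon length of Egfl8 is shared with neighbouring genes. None of the 6 passed limma at an unadjusted p below 0.05, while Fabp7 did without Scx+/+ replicate 3 (unadjusted p = 0.0371).

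Over the 4 companion lists, 21 of 39 genes had a row. Mlana, listed with its difference known, is left out of the counts. In limma, 0 of the other 20 were higher and 1 lower (Snai2) in Scx-/- at an unadjusted p below 0.05, where 2.82% and 1.06% of all genes were, and 0 passed after adjustment. Without overlap of the genotypes, 1 was higher (Slc24a5) and 1 lower (Snai2), where 7.19% and 2.31% of all genes were. The median log2 fold change was 0.41 for the pigment companions, 0.30 for the glia companions, -0.15 for the neural crest factors and 0.11 for the 6 listed genes, beside 0.11 over all genes, of which 63.8% were above 0. The pigment median is the value of Slc24a5, the gene that shares exon length with Myef2, and it was 0.28 without Mlana. That value without Mlana became 0.03 without Scx+/+ replicate 2 and 0.50 without Scx+/+ replicate 1. With Mlana, the pigment median became -0.04 without both libraries that stand apart. The glia median became 0.39 without both and 0.03 without Scx+/+ replicate 1. The neural crest median, of 3 genes, ranged from -0.50 to 0.17 with 1 library left out and was -0.35 without both libraries that stand apart. Of the 6 listed genes, 0 had genotypes without overlap, beside the same 7.19% and 2.31% of all genes.

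**Figure D3:**
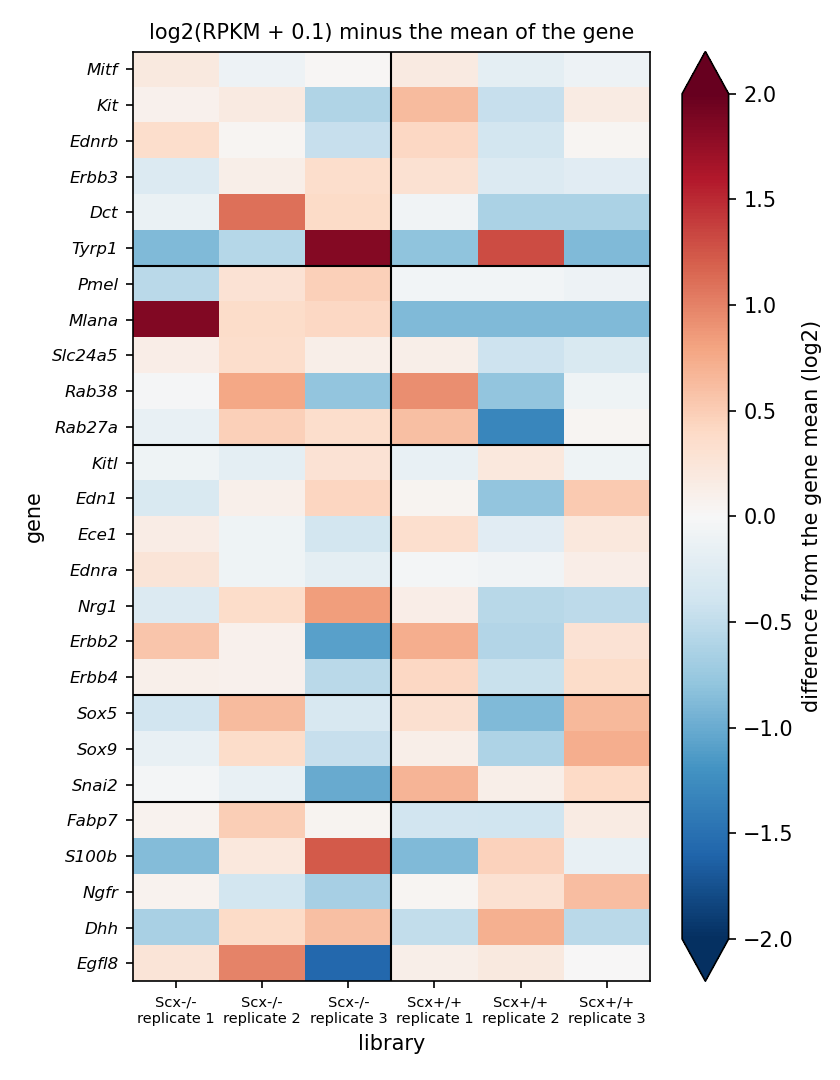
Each gene's log2(RPKM + 0.1) in each library minus its mean over the 6 libraries, with red above and blue below the mean. Rows run from the 6 listed genes through the pigment companions, ligands and co-receptors, neural crest factors and glia companions, and Tyrp1 is red in Scx-/- replicate 3 and Scx+/+ replicate 2, where Kit, Ednrb, Erbb2 and Erbb4 are blue.

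The genes whose pattern over the 6 libraries was most like that of Dct were Oxr1 (Pearson r = 0.993), Gm15563 (0.990), Ift88 (0.989), Gm15745 (0.989) and 6030446N20Rik (0.983). They were taken from 13826 genes whose mean reached 1 RPKM, of which 97 had an r above 0.9, and the points share their libraries, depth and genotype. Among the genes of the lists in this comparison, Slc24a5 ranked 137 (r = 0.888), Fabp7 1340 (0.649), Erbb3 1536 (0.623), Rab27a 1546 (0.622), Edn1 4939 (0.302), Sox9 7143 (0.098) and Mitf 7208 (0.092). Kit ranked 7626 (0.058) and Ednrb 8245 (-0.0009). Erbb4, Erbb2, Kitl, Ece1, Ednra and Snai2 ran the other way, with r from -0.075 to -0.491. None of these 4 listed genes was among the 97, and Tyrp1, whose mean was below 1 RPKM, was not ranked.

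Markers of other cells in the dissected tissue were read from the same libraries. Mast cells, which express KIT and MITF, were represented by 6 of 8 genes, with Fcer1a and Ms4a2 having no row, and Cpa3 was the most abundant. Their summed RPKM was 7.995, 10.9 and 11.7 in Scx-/- replicates 1, 2 and 3 and 6.70, 9.90 and 7.08 in Scx+/+ replicates 1, 2 and 3. Within each genotype the sum was highest in the library with the lowest Kit. Without Cpa3 it was again highest in Scx-/- replicate 3 (8.335 RPKM) and Scx+/+ replicate 2 (5.735 RPKM). Cpa3 itself was highest in Scx+/+ replicate 2 (4.17 RPKM) and, within Scx-/-, in replicate 2 (4.12 RPKM), the Scx-/- library with the highest Kit. The order in Scx-/- was thus not that of every gene of the list. Macrophages had 8 of 8 genes, led by C1qa, with sums of 15.3, 18.4 and 10.3 RPKM in Scx-/- and 12.9, 13.9 and 9.52 RPKM in Scx+/+ replicates 1, 2 and 3. Their highest sum was in Scx-/- replicate 2, the library with the highest Dct and the highest glia sum (12.3 RPKM, against 6.88 to 9.36 in the other 5). Of the 45 genes with a row in these 7 other lists, 1 was higher (Cd68) and 0 lower in Scx-/- at an unadjusted p below 0.05 in limma, where 2.82% and 1.06% of all genes were. The genes called changed with the scaling: with medians set to 0, Cd68 was higher and Stmn2 and the endothelial genes Cdh5 and Kdr were lower, and with quantile normalization Cd68 was higher and Cdh5 and Kdr lower. Cd68, a lysosomal protein of macrophages, had an unadjusted p = 0.0290, an adjusted p = 0.967 and a log2 fold change of 1.48 (SE 0.57). Its call was lost without both libraries that stand apart (log2 fold change 1.10, unadjusted p = 0.103), without either of them alone, without Scx-/- replicate 2 and with the replicate block. It was higher in all 3 Scx-/- libraries, 0.639 to 1.54 RPKM, than in the Scx+/+ libraries, 0.0949 to 0.476 RPKM. The 0.0949 RPKM, in Scx+/+ replicate 2, is the fill-in value. With 1 added instead of 0.1 the log2 fold change was 0.59, and with 0.01 it was 1.82. Without overlap of the genotypes, 2 of the 45 were higher (Cd68 and Tagln) and 3 lower (Stmn2, Col1a1 and Myh7), where 7.19% and 2.31% of all genes were. The part of these cells in the values of Dct, Kit and Mitf was not tested.

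Endothelium, which expresses EDNRB in places, had 7 of 7 genes, led by Pecam1 at 33.3 to 39.4 RPKM. Its sums were 134.9, 116.8 and 114.4 RPKM in Scx-/- replicates 1, 2 and 3 and 130.8, 125.9 and 115.1 RPKM in Scx+/+ replicates 1, 2 and 3. They were highest in replicate 1 of each genotype, as Ednrb was, and the Scx-/- libraries kept the order of Ednrb. Scx+/+ replicates 2 and 3 had the opposite order, with Ednrb at 21.4 and 28.3 RPKM. Cardiomyocyte genes, 7 of 7, were far more abundant, led by Tnnt2 at 3539 to 6694 RPKM. Their sums were 13020, 10670 and 14380 RPKM in Scx-/- replicates 1, 2 and 3 and 11760, 16260 and 9942 RPKM in Scx+/+ replicates 1, 2 and 3. The highest were in the 2 libraries that stand apart, where Tyrp1 was high and Kit and Ednrb low. Without Tnnt2 the sum was again highest in Scx+/+ replicate 2 (10200 RPKM). Scx-/- replicate 3 (7685 RPKM) then fell below Scx-/- replicate 1 (7757 RPKM). Valve mesenchyme, 8 of 8 genes led by Postn, summed to 429.7 to 639.6 RPKM, highest in Scx-/- replicate 3. The list includes Scx itself. Without Postn the sum was highest in Scx-/- replicate 2 (291.5 RPKM). Scx-/- replicate 3 (253.1 RPKM) was then below Scx+/+ replicates 1 and 3 (276.8 and 268.8 RPKM). Smooth muscle, 4 of 4 genes led by Acta2, summed to 443.6 to 669.4 RPKM. Autonomic neurons, another derivative of the neural crest, had 5 of 10 genes, and Th, Dbh, Chrna3 and Ret were among those with no row. Their sum of 28.8 to 42.8 RPKM came mostly from Ddc (89.4%), and without Ddc it was 2.82 to 5.17 RPKM. The part of these cells in the values of Mitf, Ednrb, Kit and Tyrp1 was not tested.

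**Figure D4:**
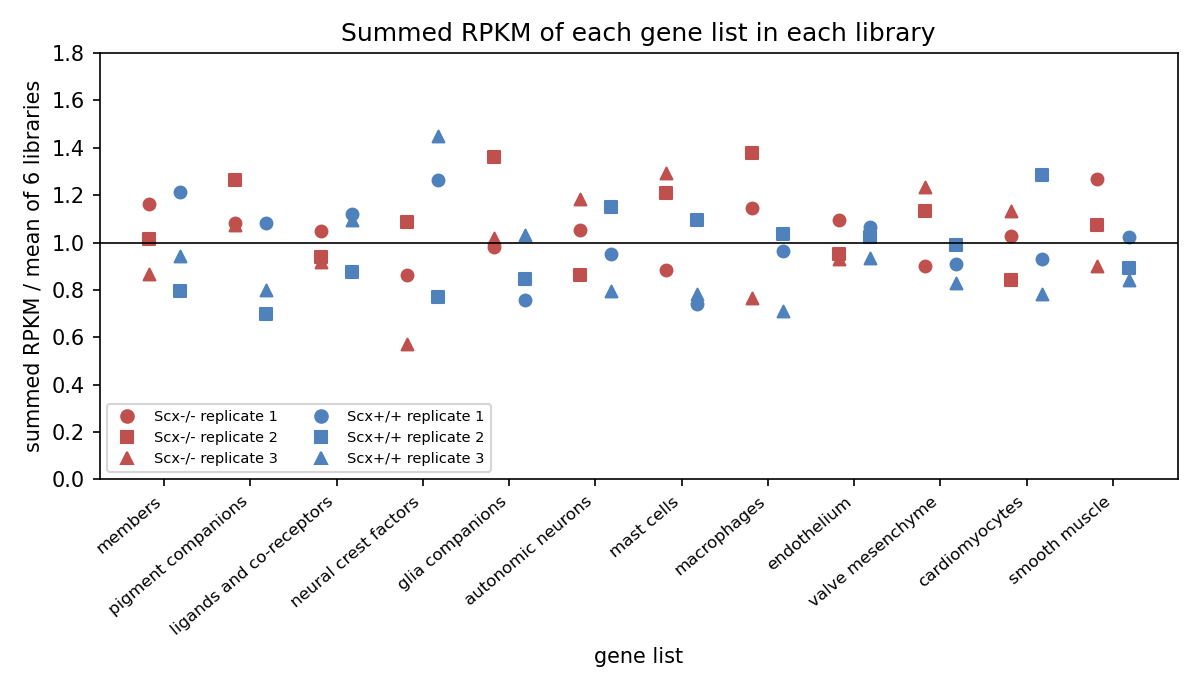
Summed RPKM of each gene list in each library, divided by the mean of the 6 libraries, with Scx-/- in red and Scx+/+ in blue. Cardiomyocyte sums were highest in Scx+/+ replicate 2 (1.28) and Scx-/- replicate 3 (1.14), and macrophage and glia sums in Scx-/- replicate 2 (1.38 and 1.36). Without Tnnt2, the cardiomyocyte sum of Scx-/- replicate 3 was just below that of Scx-/- replicate 1.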

How the data were processed

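The authors aligned the reads with TopHat 1.4.1 to mm9, counted reads in Ensembl exons with easyRNASeq, kept genes above a minimum of mapped reads in at least 1 library, replaced low values with a common value (0.0949 RPKM, 8395 values) and deposited RPKM. Identifiers were matched to GENCODE for mm9 (18695 of 18810), and all 98 genes of the lists were found there, 2 under older symbols. Reads were recovered from RPKM, exon length and a solved depth, and 98.5% to 98.6% of values under 1000 reads lay within 0.1 of a whole read. These reads served for depth and counting intervals only.

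Scx-/- was compared with Scx+/+ on log2(RPKM + 0.1) by limma (version 3.58.1, R 4.3.3), whose variance prior followed the intensity and which had no covariate. The p-values of 18810 genes were adjusted after Benjamini and Hochberg. Calls were made at an unadjusted p below 0.05, the threshold of the study. Other steps ran in Python 3.11.15 (pandas 2.3.3, numpy 2.4.6, matplotlib 3.10.9, scipy 1.17.1). Named are the 7 genes, the 4 companion lists, the most abundant genes and missing markers of 7 other cell type lists, Scx, and the 5 genes most like Dct. The rule named the same for Sox10, which had no row. Genes named outside this rule (Cd68, Tagln, Stmn2, Col1a1, Myh7, Cdh5, Kdr, and those most like Tyrp1) were chosen after their values were seen. The members and lists were chosen with earlier results of these data known. The steps were tested on simulated data. A few genes of the lists are counted but not reported here.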

Additional observations from a re-analysis of the deposited data

How the results depend on the processing

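The alternatives were pseudocounts of 0.01 and 1, a filter that kept the 13827 genes averaging 1 RPKM or more, limma without the trend, medians set to 0, quantile normalization, a replicate block, each library left out in turn and, chosen after seeing the data, both libraries that stand apart left out. Under all of them limma called 0 genes after adjustment. Genes at an unadjusted p below 0.05 (731) numbered 539 to 1549 with 1 library left out, highest without Scx+/+ replicate 2 and lowest without Scx+/+ replicate 3, and 1587 without both libraries that stand apart. The number of companion calls is given without Mlana, which was listed with its difference known. It was 1 (Snai2) and became 0 with the filter, where Snai2 had an unadjusted p = 0.0528 in limma, with the replicate block and without both libraries that stand apart. With 1 library left out it was 0 or 1. The 1 was Snai2 without Scx-/- replicate 1 or Scx+/+ replicate 2, Slc24a5 without Scx+/+ replicate 1 and Fabp7 without Scx+/+ replicate 3. The pigment median (0.41) became -0.044 without both, 0.28 without Mlana, and 0.16 to 0.57 with 1 library left out. The glia median (0.30) was 0.0269 to 0.475 with 1 library left out, the neural crest median (-0.15) -0.50 to 0.17 and that of the ligands and co-receptors (-0.01) -0.21 to 0.03. The cause was not tested. In the 7 other lists, the calls were 1 higher (Cd68) and 0 lower, and numbered 0 to 3 higher and 0 to 3 lower under the alternatives. The median of the 6 listed genes ranged from -0.01 to 0.17. Samples of the same replicate number did not deviate together (correlations across genes of 0.09, -0.22 and -0.19), and the labels name no litter, so the numbers were not taken as pairs. The correlations are linked within each genotype and cannot show that pairing was absent. With the replicate block, 573 genes passed at an unadjusted p below 0.05. With 3 libraries in each genotype, limma's p-values set a difference against a spread between libraries that is moderated over all genes. Embryo, dissection and library are not separated in that spread.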

Other observations

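After its values were seen, the genes most like Tyrp1 over the 6 libraries were looked up in the same way as for Dct. Among 13827 genes whose mean reached 1 RPKM they were Plin4 (Pearson r = 0.996), Aldoc (0.996), Rxfp1 (0.995), Egln3 (0.994) and Gm16179 (0.992), and 298 had an r above 0.9. Of the 6 Tyrp1 values, 2 were at the fill-in value. Plin4, a protein of lipid droplets, had 3.57 RPKM in Scx-/- replicate 3 and 2.83 RPKM in Scx+/+ replicate 2, and 0.508 to 0.770 RPKM in the other 4 libraries. Egln3, an oxygen-sensing prolyl hydroxylase, had 21.9 and 18.7 RPKM in these 2 libraries and 7.07 to 7.24 RPKM in the other 4. Of the listed ligands, Kitl ranked 50 in this order (r = 0.961), while Kit ranked 13241 (r = -0.899) and Ednrb 13357 (r = -0.913). Dct ranked 6279 (r = -0.0003). The points share their libraries and depth, and the r describe 6 libraries without a test.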
